A study of Mus musculus with 4 samples.

Results

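A set of 10 macrophage genes was followed through laser-captured stroma and luminal epithelium, the cell layer that lines the cavity of the mouse uterus: the growth factor receptor gene Csf1r, the surface antigen gene Emr1, the complement genes C1qa, C1qb and C1qc, Lyz2, Ctss, Cd68, Apoe and the leukocyte gene Ptprc. They were chosen by symbol, as genes known from macrophages, and make up 10 of the 23235 genes listed in each of the 2 deposited tables. The study measured RNA by sequencing in 4 libraries of cells taken by laser microdissection, 1 of each compartment from a control uterus (Msx1f/f/Msx2f/f) and 1 of each from a uterus in which the homeobox genes Msx1 and Msx2 were deleted (Msx1d/d/Msx2d/d, described as uterine-specific). Mating was with vasectomized males, which leaves a female pseudopregnant with no embryos, and all tissue is from day 4. Only 1 mouse is described for either genotype, and differences between genotypes and between animals cannot be told apart. The sources used here do not give the Cre driver, the age of the mice or a background strain beyond the alleles.

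Macrophages are tissue phagocytes that depend on signalling through the receptor encoded by Csf1r, whose ligands are colony stimulating factor 1 and interleukin 34. They secrete the C1q that opens the classical complement pathway, digest what they engulf in lysosomes with enzymes such as cathepsin S, and export cholesterol on apolipoprotein E. In the uterus they lie mainly in the stroma and muscle layers, and their numbers follow the ovarian hormones.

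The captures held the tissue that their labels name. A list of 15 epithelial markers summed to 467 and 534 RPKM (reads scaled by transcript length and by the size of the library) in control and labelled knockout epithelium, against 1.86 and 0.582 RPKM in control and labelled knockout stroma. A list of 21 stromal markers summed to 579 and 904 RPKM in the stromal libraries and to 22.3 and 9.51 RPKM in the epithelial ones. The epithelial pair, control then labelled knockout, had Msx1 at 23.2 and 13.6 RPKM, while Msx2 was at 1.31 and 2.06 RPKM, which goes against the label. Which exons were deleted was not given, so these values do not settle the genotype, and the library is called the labelled knockout throughout. Depth estimated from the values was 6.24 M reads for control epithelium, 90.6 M for labelled knockout epithelium, and 42.6 M and 62.5 M for control and labelled knockout stroma. A single read on a transcript of 1 kb thus stood for 0.160 RPKM in control epithelium and for 0.0110 RPKM in its partner. With 1 library per group nothing has a replicate: higher and lower describe these libraries, and a difference cannot be set against the spread between mice.

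The macrophage genes were higher in stroma than in epithelium and lower in the labelled knockout than in the control of both compartments, with Cd68 in epithelium as the exception. Summed over the 10 genes, the level was 24.7 RPKM in control epithelium, 2.59 RPKM in labelled knockout epithelium, 145 RPKM in control stroma and 62.7 RPKM in labelled knockout stroma. Apoe and Lyz2 together made up between 46.5% and 68.8% of that sum in each library. All 10 genes were above 0 in every library. The reads behind them differed widely, from an estimated 193 over all 10 genes in control epithelium and 284 in labelled knockout epithelium to 7943 in control stroma and 5159 in labelled knockout stroma. In captured tissue, fewer macrophages, less RNA of these genes per macrophage, and differences in other cells or in carried-over tissue cannot be told apart.

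**Figure D1:**
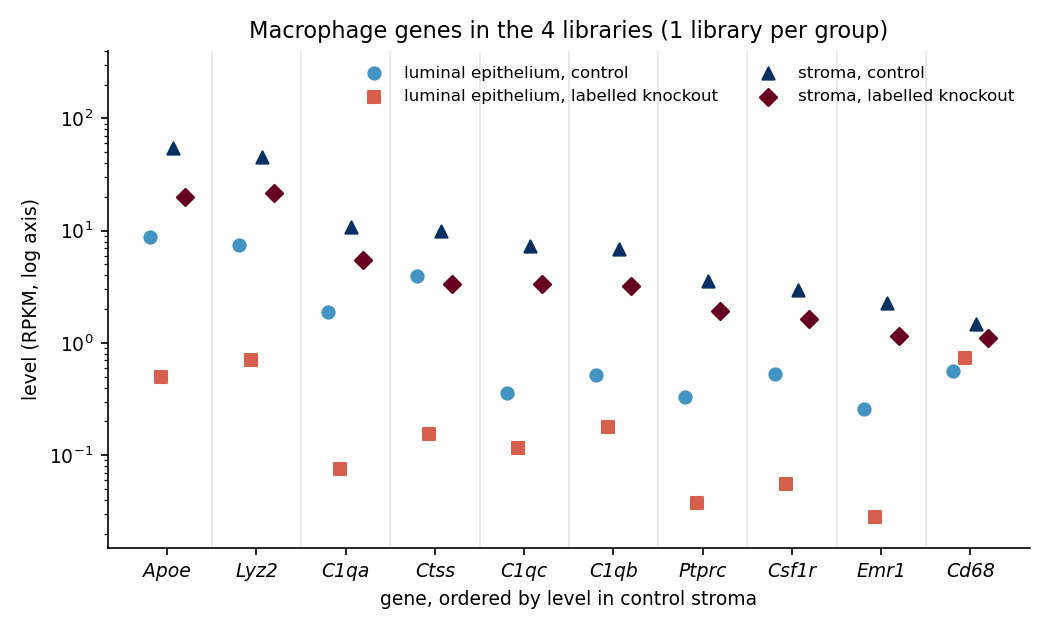
Level of each macrophage gene in RPKM (log axis) in the 4 libraries, 1 point per library, with genes ordered by their level in control stroma. For every gene the control stroma point lies highest; labelled knockout epithelium lies lowest for 9 genes, and Cd68 there, at 0.742 RPKM, lies above control epithelium at 0.565 RPKM.

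Csf1r (chromosome 18, 61265226 to 61290793, mm9) encodes the receptor that macrophages need to survive and divide. It was at 0.529 RPKM in control epithelium, 0.0555 RPKM in labelled knockout epithelium, 2.94 RPKM in control stroma and 1.64 RPKM in labelled knockout stroma. Control stroma was highest and labelled knockout epithelium lowest. The ratio of labelled knockout to control was 0.105 in epithelium, with 95% limits of 0.0471 and 0.235, and 0.558 in stroma, with limits of 0.486 and 0.641. These limits come from estimated reads, here 12 and 18 in the epithelial pair, and they cover counting error only.

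Emr1 (chromosome 17, 57498109 to 57622952), also known as Adgre1, encodes the adhesion receptor most used to recognise mouse macrophages. Its level was 0.258 RPKM in control epithelium, 0.0283 RPKM in labelled knockout epithelium, 2.28 RPKM in control stroma and 1.15 RPKM in labelled knockout stroma. It was the lowest of the 10 genes in both epithelial libraries, where it rested on an estimated 5 and 8 reads. The order of the libraries was that of Csf1r, with a ratio of 0.110 in epithelium (limits 0.0318 and 0.428) and of 0.504 in stroma (limits 0.422 and 0.604).

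A list of 20 genes of CSF1 receptor signalling and of macrophage growth, Csf3 among them, held genes on either side of the control. Of these, 5 lay below the control and 2 above it in epithelium by their counting limits, beside 11% below and 14.6% above of all genes. In stroma 9 lay below and 2 above, beside 12% and 19.4% of all genes. The median log2 difference of the list, taken on log2(RPKM + 1), was -0.01 in epithelium and -0.08 in stroma, beside 0.03 and 0.01 over all genes. The ligand gene Csf1, chosen after its values were seen, was at 0.228 and 0.0471 RPKM in control and labelled knockout epithelium and at 0.644 and 0.626 RPKM in the stromal pair, a stromal ratio of 0.973 with limits of 0.725 and 1.31. Maf, a transcription factor of macrophages and of other cells, was at 0.191 and 0.0494 RPKM in the epithelial pair and at 5.77 and 6.63 RPKM in the stromal pair. Csf3, a granulocyte growth factor, was at 0.836 and 4.25 RPKM in the epithelial pair (ratio 5.08, limits 2.44 and 14.7). Grb2, another abundant gene of the list, had ratios of 0.978 in epithelium (limits 0.737 and 1.33) and 0.994 in stroma (limits 0.809 and 1.22).

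C1qa, C1qb and C1qc encode the chains of C1q, which binds antibody and dying cells and starts the complement cascade. They lie side by side on chromosome 4 (136451831 to 136454759, 136436061 to 136442092 and 136445717 to 136448829, mm9). The promoter stretches of C1qb and C1qc are shown because both hold the letters AGGAAGT or their reverse complement, in capitals, a core bound by ETS factors such as the macrophage factor PU.1. These sequences are RefSeq promoter windows on GRCm38.p6, chr4:136886232-136886268 and chr4:136893088-136893124, minus strand, with the motif 53 and 195 bases before the gene start.
C1qb: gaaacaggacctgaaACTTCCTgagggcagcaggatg
C1qc: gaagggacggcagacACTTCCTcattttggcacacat

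C1qa was at 1.88 RPKM in control epithelium, 0.0755 RPKM in labelled knockout epithelium, 10.8 RPKM in control stroma and 5.43 RPKM in labelled knockout stroma. C1qb stood at 0.523, 0.178, 6.82 and 3.20 RPKM in the same order of libraries. C1qc stood at 0.356, 0.117, 7.32 and 3.36 RPKM in that order. All chains were thus highest in control stroma, and each was lower in the labelled knockout of both compartments. In stroma the ratios were close together, at 0.502 for C1qa (limits 0.429 and 0.586), 0.468 for C1qb (0.383 and 0.567) and 0.458 for C1qc (0.382 and 0.546). In epithelium C1qa had a ratio of 0.0401 (limits 0.0123 and 0.126), whereas C1qb at 0.341 (0.0897 and 1.74) and C1qc at 0.328 (0.0827 and 3.52) had limits that reach past 1. Only an estimated 3 and 2 reads lay behind C1qb and C1qc in control epithelium, and a difference of these chains was not resolved there.

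The chains kept similar proportions to each other in the stromal libraries. The ratio of C1qa to C1qb was 1.59 in control stroma (limits 1.35 and 1.86) and 1.70 in labelled knockout stroma (limits 1.41 and 2.07), and that of C1qb to C1qc was 0.931 and 0.952. In epithelium C1qa to C1qb was 3.60 in the control (limits 0.907 and 19.9) and 0.423 in the labelled knockout (limits 0.143 and 1.25), intervals that overlap each other.

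Other complement genes were divided between the compartments. Of 26 genes of the classical and alternative pathways, 7 lay below the control and 2 above it by counting limits in epithelium. In stroma 13 lay below and 1 above. Shares over all genes were 11% below and 14.6% above in epithelium, and 12% and 19.4% in stroma. The median log2 differences of the list were -0.10 and -0.11, beside 0.03 and 0.01 over all genes. C1s, a protease that acts together with C1q, was mainly stromal, at 11.3 and 9.96 RPKM in control and labelled knockout stroma against 0.222 and 0.0562 RPKM in epithelium. Serping1, the inhibitor of the C1 proteases, was at 21.0 and 10.3 RPKM in the epithelial pair, a ratio of 0.489 (limits 0.422 and 0.568), and at 7.40 and 6.70 RPKM in the stromal pair, a ratio of 0.906. Cfb, factor B of the alternative pathway, was mainly epithelial, at 12.5 and 14.3 RPKM, and was at 0.710 and 0.258 RPKM in stroma. Calr, the most abundant gene of the list, was higher in the labelled knockout of both compartments. It was at 33.4 and 59.8 RPKM in the epithelial pair, a ratio of 1.79 (limits 1.62 and 1.98). In the stromal pair Calr was at 27.0 and 35.6 RPKM, a ratio of 1.32 (limits 1.25 and 1.39). C4b, the target of C1s and chosen after its values were seen, was at 1.11 and 0.182 RPKM in the stromal pair, a ratio of 0.164 (limits 0.122 and 0.220).

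Lyz2 (chromosome 10, 116714597 to 116719328, mm9) encodes the lysozyme of macrophages and neutrophils, and its near-identical neighbour Lyz1 encodes the lysozyme of Paneth cells. Their transcripts were 96.0% identical over 1262 aligned bases, and 195 of the 1267 stretches of 50 bases in Lyz2 (15.4%) also occur in Lyz1, so some reads can be assigned to either and both values are uncertain. The bases before each gene are shown because the copies are alike there too and hold the ETS core at the same place. Both are the first 200 bases of RefSeq windows that begin 250 bases before the gene start, so they stop short of it. They lie on GRCm38.p6, minus strand, at chr10:117282323-117282522 for Lyz2 and chr10:117292919-117293118 for Lyz1. The reverse complement of AGGAAGT, in capitals, begins 100 bases before the gene start in the one and in the other. Aligned with gaps, they hold the same base at 150 of 198 aligned positions (75.8%).
Lyz2: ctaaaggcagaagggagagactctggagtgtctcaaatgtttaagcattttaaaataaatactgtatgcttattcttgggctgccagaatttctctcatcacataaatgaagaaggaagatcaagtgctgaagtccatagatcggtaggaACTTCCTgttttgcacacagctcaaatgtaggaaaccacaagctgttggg
Lyz1: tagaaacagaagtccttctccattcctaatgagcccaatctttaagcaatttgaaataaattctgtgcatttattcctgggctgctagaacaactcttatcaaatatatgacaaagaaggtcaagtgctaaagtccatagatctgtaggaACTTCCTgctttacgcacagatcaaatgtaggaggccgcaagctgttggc

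Lyz2 was at 7.50 RPKM in control epithelium, 0.705 RPKM in labelled knockout epithelium, 45.1 RPKM in control stroma and 21.5 RPKM in labelled knockout stroma. It was among the highest macrophage genes in each library, at or above 98.9% of the genes listed above 0 in control stroma. The ratio of labelled knockout to control was 0.0941 in epithelium (limits 0.0648 and 0.137) and 0.477 in stroma (limits 0.446 and 0.510). Lyz1 had another pattern in the epithelial pair, at 1.48 and 6.28 RPKM, where the ratio was 4.24 (limits 2.25 and 8.73). In stroma Lyz1 was at 5.26 and 2.94 RPKM, a ratio of 0.558 (limits 0.459 and 0.676), so there the copies were both lower in the labelled knockout.

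Ctss (chromosome 3, 95330708 to 95360325, mm9) encodes cathepsin S, the protease that trims the class II invariant chain in antigen-presenting cells. The reverse complement of AGGAAGT, in capitals, begins 2 bases before its gene start and runs across it (RefSeq window on GRCm38.p6, chr3:95526769-95526790, plus strand), and is shown for comparison with C1qb, C1qc and Lyz2.
Ctss: ccgaaatgaaagttcACTTCCT

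Ctss was at 3.97 RPKM in control epithelium, 0.153 RPKM in labelled knockout epithelium, 9.86 RPKM in control stroma and 3.35 RPKM in labelled knockout stroma. Control epithelium was above labelled knockout stroma, a placing that it shared with no other of the 10 genes. The ratio of labelled knockout to control was the lowest among them in each compartment, 0.0386 in epithelium (limits 0.0193 and 0.0723) and 0.340 in stroma (limits 0.290 and 0.398). In epithelium the limits of Ctss overlap those of C1qa, Apoe, Lyz2, Csf1r, Emr1 and Ptprc, and in stroma those of Apoe, C1qb and C1qc, so its place in that order was not resolved by counting.

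Cd68 (chromosome 11, 69477873 to 69479564, mm9) encodes a glycoprotein of the lysosomal membrane that is abundant in macrophages and present in other cells with many lysosomes. Its level was 0.565 RPKM in control epithelium, 0.742 RPKM in labelled knockout epithelium, 1.49 RPKM in control stroma and 1.10 RPKM in labelled knockout stroma. It spanned the narrowest range of the 10 genes, and was the only one not lower in labelled knockout epithelium. Its ratios were 1.31 in epithelium (limits 0.444 and 4.48) and 0.739 in stroma (limits 0.525 and 1.06), and both intervals include 1. Of the 10 genes, Cd68 had the highest level in labelled knockout epithelium and the lowest in control stroma.

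Lysosomal genes as a group did not follow the macrophage genes in epithelium. A list of 25 lysosomal proteases and hydrolases summed to 1904 RPKM in control and 2727 RPKM in labelled knockout epithelium, where 4 lay below and 11 above the control by counting limits and the median log2 difference was 0.19. In stroma the sums were 191 and 169 RPKM, with 12 below, 3 above and a median of -0.13. Over all genes, 11% lay below and 14.6% above in epithelium, and 12% and 19.4% in stroma. Ctsd, the lysosomal aspartic protease, alone was at 1611 and 2312 RPKM in the epithelial pair against 17.7 and 17.0 RPKM in the stromal pair. Lamp2, a lysosomal membrane protein like Cd68, was at 54.3 and 102 RPKM in epithelium, a ratio of 1.88 (limits 1.75 and 2.01), and at 13.3 and 13.5 RPKM in stroma. Grn, the progranulin gene, was at 57.1 and 86.0 RPKM in epithelium and at 9.78 and 7.78 RPKM in stroma.

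Apoe (chromosome 7, 20281593 to 20284515, mm9) encodes apolipoprotein E, which carries cholesterol out of macrophages and is also made by other cells. It was at 8.80 RPKM in control epithelium, 0.499 RPKM in labelled knockout epithelium, 54.5 RPKM in control stroma and 20.0 RPKM in labelled knockout stroma. Apoe was the highest of the 10 genes in both control libraries and stood below Lyz2 in both labelled knockout libraries. The ratio was 0.0567 in epithelium (limits 0.0394 and 0.0834) and 0.367 in stroma (limits 0.344 and 0.390), that is 17.6-fold and 2.73-fold lower. Of 22 genes of lipid carriage and efflux, 6 lay below and 1 above the control in epithelium by counting limits, and 7 below and 4 above in stroma. Among all genes 11% lay below and 14.6% above in epithelium, and 12% and 19.4% in stroma. The median log2 differences of the list were -0.06 and -0.13, beside 0.03 and 0.01 over all genes. Abca1, the transporter that loads cholesterol onto apolipoproteins, was at 5.41 and 3.63 RPKM in the epithelial pair, a ratio of 0.670 (limits 0.599 and 0.751), and at 4.80 and 3.07 RPKM in the stromal pair, a ratio of 0.639 (limits 0.600 and 0.680). Lrp1, a receptor that takes up apolipoprotein E, was at 0.361 and 0.104 RPKM in epithelium and at 10.2 and 8.66 RPKM in stroma.

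Ptprc (chromosome 1, 139959438 to 140071882, mm9) encodes CD45, the phosphatase carried by nearly all leukocytes and therefore not restricted to macrophages. It was at 0.329 RPKM in control epithelium, 0.0379 RPKM in labelled knockout epithelium, 3.58 RPKM in control stroma and 1.94 RPKM in labelled knockout stroma, the same order of libraries as Csf1r and Emr1. The ratios were 0.115 in epithelium (limits 0.0470 and 0.272) and 0.542 in stroma (limits 0.485 and 0.607). Of 15 pan leukocyte genes, 5 lay below and 1 above the control by counting limits in epithelium, beside 11% and 14.6% of all genes. In stroma 13 lay below and 0 above, beside 12% and 19.4% of all genes, and the median log2 difference was -0.50. Coro1a, an actin regulator of leukocytes, was at 0.806 and 0.248 RPKM in the epithelial pair and at 7.59 and 3.95 RPKM in the stromal pair. Cyba, another abundant gene of the list, was not resolved in either pair. It was at 7.69 and 7.88 RPKM in stroma, a ratio of 1.02 (limits 0.843 and 1.24). In epithelium Cyba was at 6.53 and 4.85 RPKM, a ratio of 0.743 (limits 0.483 and 1.22). Cd52, a small leukocyte surface glycoprotein, was at 3.80 and 9.01 RPKM in control and labelled knockout epithelium, a ratio of 2.37 (limits 1.21 and 6.35), and at 10.8 and 5.92 RPKM in stroma.

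Within epithelium, 4 of the 10 genes (C1qa, Lyz2, Ctss and Apoe) were at least 2-fold lower in the labelled knockout on the log2(RPKM + 1) scale, as were 1.15% of all genes above 0, and 0 of the 10 were higher, against 2.59% of genes. That scale understates differences of low genes: by plain ratio 9 of 10 were below the control, against 39.3% of all genes, and 7 of 10 had counting limits wholly below 1, against 11% of genes. The 3 others were C1qb, C1qc and Cd68, each at an estimated 2 to 4 reads in control epithelium. The median log2 difference of the 10 genes was -0.45, ranging from -2.71 for Apoe to 0.15 for Cd68, beside a median of 0.03 over all genes. Stromal markers were lower too: 17 of 21 had limits below 1 and 0 above it, beside 11% and 14.6% of all genes. Their median was -0.40, and they summed to 22.3 and 9.51 RPKM in that pair. Col3a1, the most abundant of these, was at 4.76 and 2.25 RPKM, and Vim at 1.39 and 0.266 RPKM. Smooth muscle markers summed to 5.36 and 0.791 RPKM, with 2 of 10 and 1 of 10 listed at 0, and endothelial markers to 0.937 and 0.971 RPKM, with 6 of 13 and 2 of 13 listed at 0. The part of stromal and muscle RNA in this difference was not tested, nor was that of the 14.5-fold gap in depth.

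In stroma, 3 of the 10 genes (Lyz2, Ctss and Apoe) were at least 2-fold lower in the labelled knockout on the log2 scale, against 0.72% of all genes, and 0 were higher, against 0.658%. By plain ratio 10 of 10 were lower, against 44.7% of genes, and 9 of 10, all but Cd68, had counting limits wholly below 1, against 12% of genes. The ratios had a median of 0.489 and ran from 0.340 for Ctss to 0.739 for Cd68, while the median log2 difference was -0.89, beside 0.01 over all genes. Stromal markers went the other way there, with 15 of 21 above and 2 below the control by counting limits, beside 19.4% and 12% of all genes. They had a median of 0.43 and summed to 579 and 904 RPKM. Their part in the result was not tested. Endothelial markers summed to 63.2 and 59.8 RPKM, with 4 of 13 below, 1 above and a median of -0.05. Depth differed by 1.46-fold in this pair.

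**Figure D2:**
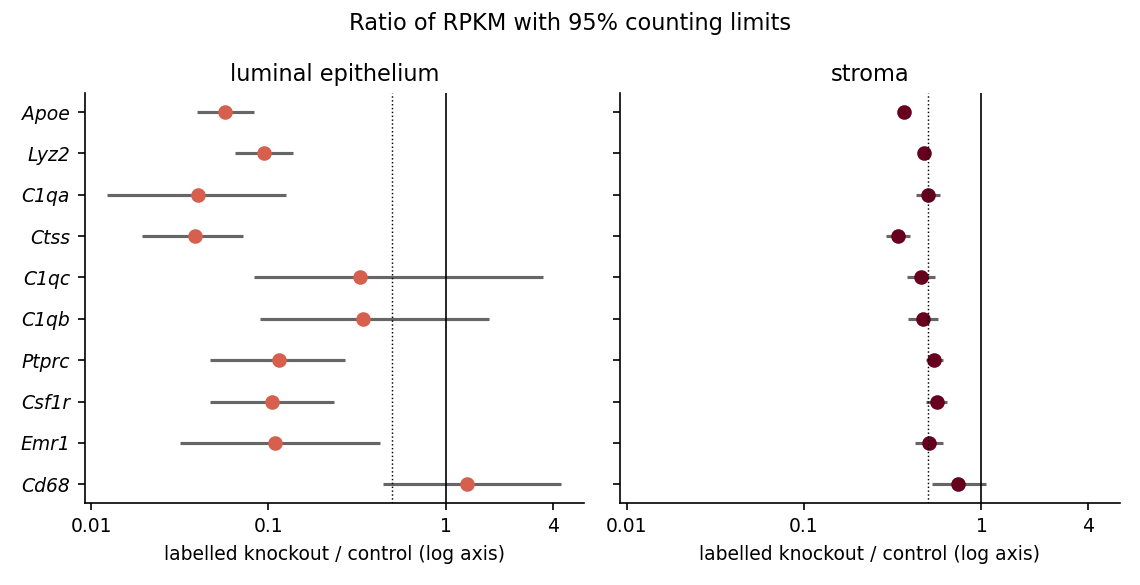
Ratio of RPKM in labelled knockout to control (log axis) for each macrophage gene, with luminal epithelium on the left and stroma on the right. Points are ratios of 1 library to 1 library, bars are 95% counting limits, the solid line marks equal levels and the dotted line a ratio of 0.5. Stromal points lie between 0.340 and 0.739, and the epithelial points of all genes except Cd68 lie at 0.341 or lower.

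Set against stroma of the same genotype, 9 of the 10 genes stood lower in labelled knockout epithelium than in control epithelium, and Cd68 higher. The share of all genes that did so was not counted. The median of stromal markers moved the same way, from 3.72% of the stromal level in control epithelium to 1.08% in labelled knockout epithelium. The compartments were normalized in separate tables, so levels set across them are approximate, and these ratios use the same 4 libraries as the ratios above. In the control, 9 of 10 genes were at least 2-fold lower in epithelium than in stroma on the log2 scale, against 7.76% of all genes, and the median gene stood at 16.4% of its stromal level. In the labelled knockout 9 of 10 were also at least 2-fold lower, against 6.84% of all genes, and the median was 3.33%. Cd68 was the gene outside the count in each case. By counting limits, 9 of 10 lay below the stromal level in the control, against 20.6% of genes, and 10 of 10 in the labelled knockout, against 32.9%.

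Single genes departed from these medians. Control epithelium held 40.3% of the stromal level of Ctss (limits 27.0% and 59.3%), and labelled knockout epithelium 4.58% (limits 2.56% and 7.55%). Lyz2 stood at 16.6% (12.3% and 21.8%) and 3.28% (2.53% and 4.14%), and Apoe at 16.2% (12.4% and 20.5%) and 2.50% (1.89% and 3.29%). C1qb at 7.67% and 5.58%, and C1qc at 4.86% and 3.48%, had overlapping limits, as did Emr1 at 11.3% (3.72% and 27.2%) and 2.46% (1.07% and 5.05%). Cd68 stood at 38.0% (11.1% and 113%) and 67.4% (47.4% and 94.7%).

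Stromal markers gave a measure of stromal RNA in the epithelial captures. Their median was 3.72% of the stromal level in control epithelium, from 1.81% for Vim to 10.9% for Hand2 among 20 genes, and 1.08% in labelled knockout epithelium, up to 2.64% for Hoxa11 among 21 genes. The medians of the macrophage genes, 16.4% and 3.33%, were above these, but the ranges overlapped: C1qb, C1qc and Ptprc lay below Hand2 in the control, and C1qa, Ptprc, Emr1 and Apoe lay below Hoxa11 in the labelled knockout. The limits of C1qb (1.62% and 23.4%) and C1qc (0.525% and 15.9%) in the control, and those of C1qa (0.528% and 3.20%) and, narrowly, Emr1 in the labelled knockout, take in the stromal marker median. Endothelial markers had medians of 0.948% and 0.363%. Whether the macrophage RNA came from cells inside the epithelium or from its border was not tested.

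**Figure D3:**
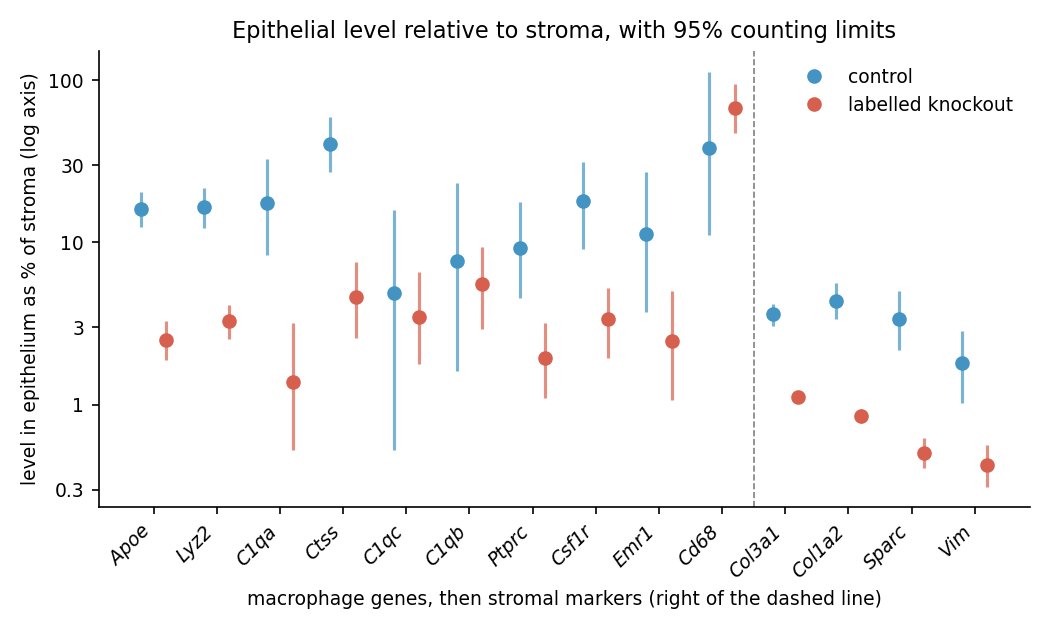
Level in luminal epithelium as a percentage of the level in stroma of the same genotype (log axis) for the macrophage genes and, right of the dashed line, 4 stromal markers, with 95% counting limits as bars. The macrophage genes in the control lie between 4.86% and 40.3%, and Col3a1, Col1a2, Sparc and Vim lie between 1.81% and 4.38% there.

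Macrophage markers outside the 10 genes lay mostly below the control in stroma, and fewer were resolved in epithelium. Of 28 such genes, 21 lay below the control by counting limits in stroma and 0 above, beside 12% and 19.4% of all genes. In epithelium 10 lay below and 1 above, beside 11% and 14.6% of all genes. The median log2 difference was -0.41 in stroma and -0.09 in epithelium. Their sum was 49.98 and 26.4 RPKM in control and labelled knockout stroma. In epithelium it was 34.6 and 35.0 RPKM, but Cd14, a receptor for bacterial lipopolysaccharide, supplied 24.8 and 32.0 RPKM of it. Without Cd14, a split made after its values were seen, the epithelial sums of the other 27 were 9.79 and 3.02 RPKM. Cd14 was at 0.574 and 0.326 RPKM in the stromal libraries, where the 10 macrophage genes were highest.

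Among the abundant genes of that list, Tyrobp, an adaptor of myeloid receptors, was at 7.28 and 3.57 RPKM in control and labelled knockout stroma, a ratio of 0.490 (limits 0.363 and 0.657). Tyrobp was not lower in labelled knockout epithelium, at 0.454 and 0.650 RPKM in the epithelial pair. That ratio of 1.43 had limits of 0.233 and 59.8, on an estimated 1 and 21 reads. Laptm5, a lysosomal protein of blood cells, was at 5.40 and 2.79 RPKM in stroma and at 2.02 and 0.150 RPKM in epithelium, an epithelial ratio of 0.0739 (limits 0.0448 and 0.129). Fcer1g, the shared chain of Fc receptors, was at 5.23 and 3.31 RPKM in stroma and at 1.41 RPKM in control epithelium, and was listed at 0 in labelled knockout epithelium. Mpeg1, a pore-forming protein of macrophages chosen after its values were seen, was at 3.94 and 1.78 RPKM in stroma and at 0.529 and 0.0921 RPKM in epithelium, with ratios of 0.453 and 0.174. Cd163, a scavenger receptor of resident macrophages chosen in the same way, was under 0.1 RPKM in every library, at 0.0691, 0.0576, 0.0532 and 0.0775 RPKM. Mertk, also so chosen, was at 1.29 and 1.36 RPKM in stroma, a ratio of 1.05 (limits 0.889 and 1.25). Trem2, chosen likewise, had a stromal ratio of 0.827 (limits 0.526 and 1.31).

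Of 22 Fc receptors, scavenger receptors and phagocytosis genes, 7 lay below and 1 above the control by counting limits in epithelium. In stroma 9 lay below and 3 above, and the medians were -0.05 in epithelium and -0.09 in stroma. All genes had shares of 11% below and 14.6% above in epithelium and of 12% and 19.4% in stroma. This list shares genes with the macrophage markers counted before, among them Fcer1g, Cd163 and Cd14, so the counts are not independent. Gas6, the bridging ligand that joins dying cells to phagocyte receptors, was at 3.12 and 16.7 RPKM in the stromal pair, a ratio of 5.34 (limits 4.74 and 6.02), and at 0.932 and 0.352 RPKM in epithelium. Its receptor gene Axl was at 5.73 and 5.35 RPKM in stroma, a ratio of 0.934 (limits 0.859 and 1.02).

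Class II genes, which macrophages share with dendritic and B cells, were also lower in the labelled knockout where counting resolved them. Of 16 class II and dendritic cell genes, 5 lay below and 0 above the control by counting limits in epithelium, beside 11% and 14.6% of all genes. In stroma 12 lay below and 0 above, beside 12% and 19.4% of all genes. The median log2 differences were -0.04 in epithelium and -0.39 in stroma. They summed to 14.8 and 2.65 RPKM in the epithelial pair and to 126 and 47.5 RPKM in the stromal pair. Cd74, the invariant chain that cathepsin S cuts, was at 52.1 and 19.8 RPKM in stroma, a ratio of 0.380 (limits 0.356 and 0.407), beside 0.340 for Ctss. H2-Aa, a class II chain, was at 28.6 and 11.0 RPKM in stroma and at 2.86 and 0.128 RPKM in epithelium, an epithelial ratio of 0.0449 (limits 0.0189 and 0.101).

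Markers of other leukocytes were counted in the same way, beside 12% below and 19.4% above the control over all genes in stroma. T and NK cell markers summed to 31.3 and 25.2 RPKM in stroma, where 11 of 17 lay below and 1 above the control, with a median of -0.28. Of the most abundant of these, the granzyme genes Gzma and Gzmb had stromal ratios of 0.738 (limits 0.564 and 0.972) and 0.775 (limits 0.636 and 0.946), and the cytokine receptor gene Il2rb one of 0.648 (limits 0.578 and 0.727). Thy1, carried by T cells and also by fibroblasts, had a ratio of 1.39 (limits 1.25 and 1.55). B cell markers summed to 35.5 and 55.7 RPKM in stroma, nearly all of it Igj, the joining chain of plasma cells, at 34.4 and 54.2 RPKM, and Cd79a was at 0.373 and 0.372 RPKM. Neutrophil markers summed to 12.2 and 43.0 RPKM in epithelium, of which Ltf, a lactoferrin also made by uterine epithelium, was 11.1 and 41.8 RPKM. Without Ltf, left out after its values were seen, they summed to 1.10 and 1.24 RPKM in epithelium and to 3.56 and 1.44 RPKM in stroma. In stroma 5 of the 12 neutrophil markers lay below and 0 above the control, with a median of -0.05. Cxcr2, the most abundant of them after Ltf, was at 1.14 and 1.10 RPKM in stroma, a ratio of 0.968 (limits 0.776 and 1.21). The neutrophil gene S100a8 was at 1.22 and 0.0977 RPKM there, on an estimated 15 and 2 reads. Its stromal ratio was 0.0798 (limits 0.0101 and 0.391), and it was listed at 0 in both epithelial libraries. The share of other leukocytes in the Lyz2, Ctss and Ptprc differences was not tested.

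**Figure D4:**
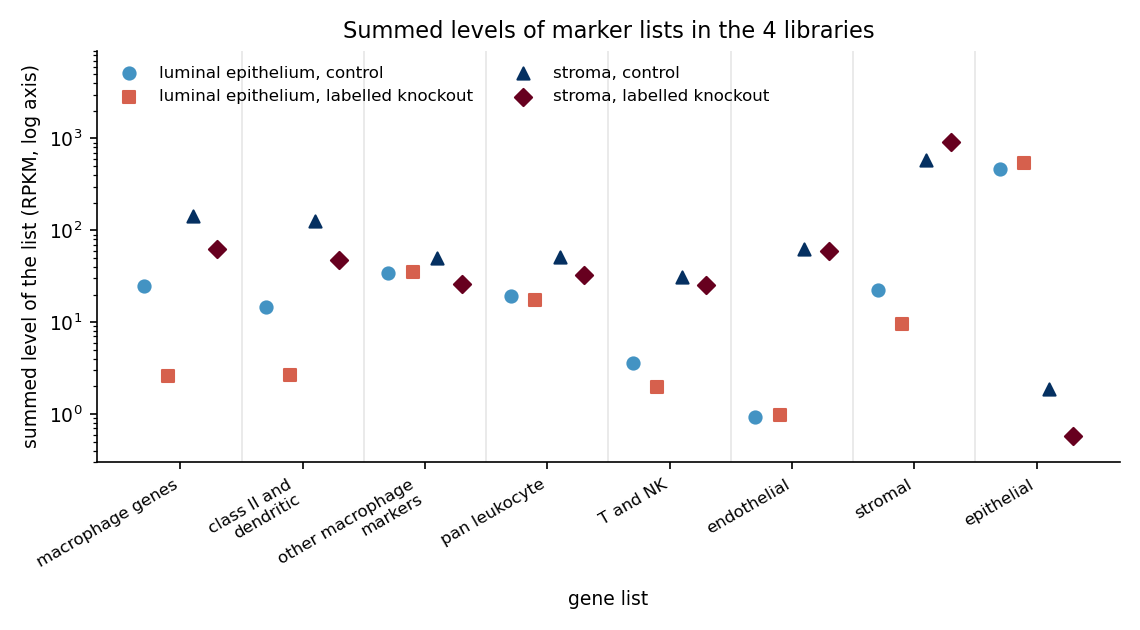
Summed RPKM (log axis) of the macrophage genes and of 7 marker lists in the 4 libraries, 1 point per library. In control and labelled knockout epithelium the macrophage genes stand at 24.7 and 2.59 RPKM and the class II list at 14.8 and 2.65 RPKM, while the epithelial list stands at 467 and 534 RPKM.

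The genes with the profile most like the median of the 10 were sought among 2760 others that reached 5 RPKM in a library. Likeness was the Euclidean distance between log2(RPKM + 1) values centred over the 4 libraries. The nearest were S100a4 at 0.19, Ccr2 at 0.33, Coro1a at 0.39, Fcer1g at 0.45, the haemoglobin gene listed as Beta-s at 0.49 and Lcp1 at 0.58, while the 10 genes themselves lay between 0.44 for C1qb and 1.90 for Apoe. S100a4, a calcium-binding protein of leukocytes and fibroblasts, was at 0.910 RPKM in control epithelium, was listed at 0 in labelled knockout epithelium, and was at 6.17 and 2.59 RPKM in stroma. Ccr2, the chemokine receptor of monocytes, was at 0.419, 0.0309, 5.54 and 2.19 RPKM in the usual order of libraries, with a stromal ratio of 0.396 (limits 0.348 and 0.450).

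RefSeq promoter windows, from 250 bases before to 50 after the gene start on GRCm38.p6, were matched for 7 of the 10 genes: C1qb, C1qc, Lyz2, Ctss, Cd68, Apoe and Ptprc. The ETS core AGGAAGT, searched on both strands, occurred in 5 of the 7 (C1qb, C1qc, Lyz2, Ctss and Ptprc) and in 10.7% of 27025 genes with a window. The longer PU.1 motif GAGGAAGT, which contains the core, occurred in C1qc and Ctss and in 3.69% of genes. The AP-1 motif TGANTCA and the C/EBP motif TTGCNNAA each occurred in Cd68 alone, and in 8.97% and 12.2% of genes. These motifs were chosen after the sequences had been seen, and a match is a description of letters, not a bound site.

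In the authors' deposited table for epithelium, 94 of 23235 genes (0.405%) were marked significant, among them Ctss (q = 0.0034), C1qa (q = 0.00815) and Apoe (q = 0.00939). Lyz2 had q = 0.0528 and Csf1r q = 0.124 in the authors' deposited table, and Emr1 was not tested there. The authors' deposited table for stroma marked 5 genes (0.0215%), none of them a macrophage gene, whose q-values ran from 0.644 to 1.0. These values compare 1 library with 1 library.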

How the data were processed

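RNA of laser-captured luminal epithelium and stroma was sequenced in 4 libraries, 1 per group. The authors deposited 1 table per compartment with RPKM for each library and, per the file headers, their own fold changes, p-values and q-values. The submitters' processing notes list Cufflinks 2.0.2, TopHat2 2.0.5, TopHat, CASAVA 1.8.2 and the build mm9. Roles, settings and the use of strand are not given in the sources used here.

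Differences were taken on log2(RPKM + 1) and as plain ratios of RPKM, with no minimum of expression and no test, and a gene was called at 2-fold or more on the log2 scale. Reads were estimated from the spacing of low RPKM values and transcript lengths less 200 bp. Between 64.2% and 65.4% of low values lay within 0.2 of a whole read, and evenly spread values would partly do so too, so reads and depths are approximate. The length of Cd68 was matched by symbol, and that of Apoe is from a later RefSeq version. Limits are 95% exact binomial (Clopper-Pearson) limits on those reads. They cover counting error only, and amplified reads are not independent molecules. Locus starts, counted from 0 in the tables, were raised by 1.

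Besides the 10 genes, the text names up to 4 genes of each list with the highest mean RPKM, the 6 nearest profiles, Msx1, Msx2 and Lyz1. Any other gene is marked in the text as picked with its values in view. The 10 genes and all lists were chosen with earlier results of these data known. Some genes, such as Laptm5, Tyrobp and Cd14, sit in several lists, so counts of different lists are not independent. Alternatives changed the pseudocount, the scaling, the minimum of expression or reads, and the rule of calling. The work was done in Python 3.11.15 with pandas 2.3.3, numpy 2.4.6, matplotlib 3.10.9 and scipy 1.17.1, and the steps were tested on simulated data.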

Additional observations from a re-analysis of the deposited data

Results flagged for a closer look

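Among the macrophage genes, Cd68 differed between genotypes in opposite directions in the compartments, with a ratio of labelled knockout to control of 1.31 in luminal epithelium and 0.739 in stroma. Both of its intervals include 1. Beyond the 10 genes, only genes whose counting limits lay wholly above 1 in a compartment and wholly below 1 in the other are listed here, 17 of those singled out by abundance in a list, likeness of profile or other choice. The difference between compartments was not tested for any of them. Higher in labelled knockout epithelium and lower in labelled knockout stroma were Lyz1 (4.24 and 0.558), Ltf (3.76 and 0.0258), Cd52 (2.37 and 0.547), Grn (1.51 and 0.796), Cd14 (1.29 and 0.569), Psap, a lysosomal activator protein (1.26 and 0.815), the tight junction gene Cldn3 (1.25 and 0.187) and the histidine decarboxylase gene Hdc, abundant in epithelium (1.19 and 0.414). Lower in epithelium and higher in stroma were Maf (0.259 and 1.15), Gas6 (0.378 and 5.34), Col3a1 (0.473 and 1.53), Col1a2 (0.433 and 2.21), Sparc (0.253 and 1.70), Thy1 (0.338 and 1.39) and the smooth muscle genes Acta2 (0.0136 and 1.47), Mylk (0.204 and 1.41) and Tagln (0.328 and 2.40). Several of these ratios rested on few estimated reads in control and labelled knockout. For example, the stromal reads were 24 and 1 for Ltf, 33 and 9 for Cldn3, and 19 and 12 for Hdc. Each of these stayed at or below 0.739 RPKM in stroma. Epithelial reads were 7 and 28 for Maf and 22 and 4 for Acta2.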

How the results depend on the processing

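All 160 member differences recomputed with another pseudocount or scaling (4 alternatives for each gene and comparison) kept their direction. A changed pseudocount cannot reverse a direction, so only the recomputations with another scaling could have done so. Under every alternative 0 of the 10 genes were called higher. The counts called at least 2-fold lower moved with the pseudocount. The epithelial count of 4 became 9 with 0.1 RPKM and 2 with 5 RPKM, and the stromal count of 3 became 5 and 1. The counts of 9 between compartments became 5 in the control and 3 in the labelled knockout with 5 RPKM. Asking only that counting limits leave out 1 gave 7 in epithelium and 9 in stroma, and scaling to the upper quartile gave 5 in stroma. Keeping genes with at least 10 estimated reads in each library, an alternative added after the data were seen, gave 3 in epithelium and 3 in stroma. Upper quartile scaling shifted the median of expressed genes by -0.48 and -0.51 on the log2 scale between compartments in control and labelled knockout. Scaling without the 50 most abundant genes shifted it by -0.18 and -0.29 there and by -0.18 between genotypes in epithelium. Control epithelium, at 6.24 M reads, limits every epithelial ratio. No paired analysis was possible because each group has 1 library and the labels give no replicate numbers, and for the same reason no library could be left out.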
